A study of Mus musculus with 16 samples.

Results

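Cholesterol and fatty acids are built from acetyl-CoA, and 33 genes that encode the enzymes of these pathways or their main regulators were followed through ribosome profiling and RNA sequencing of cultured neural stem cells. The genes were listed by name as parts of these pathways, with earlier results of these data known, and are 33 of the 20409 genes in the count table. They comprise 7 genes of the mevalonate pathway, 11 of the squalene and sterol steps, 5 regulators of the SREBP transcription factors, 1 sterol transfer protein and 9 genes of fatty acid synthesis. The list does not cover every enzyme of either pathway.

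Sterol synthesis starts in the mevalonate pathway, which turns acetyl-CoA into the isoprenoid unit isopentenyl pyrophosphate, and continues through squalene and lanosterol to cholesterol. The genes of both pathways are classical targets of SREBP1 and SREBP2, membrane-bound transcription factors encoded by Srebf1 and Srebf2. When membrane sterol is low, SCAP escorts the SREBPs from the endoplasmic reticulum to the Golgi apparatus for cleavage, and when it is high the INSIG proteins hold SCAP back. Dividing cells need both lipid classes for new membranes, and neural stem cells are known to depend on fatty acid synthase for proliferation.

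The study compared Fmr1-/y (KO) with wild-type (WT) adult neural stem cells. FMRP, the protein encoded by Fmr1, binds RNA and is found on ribosomes, and its absence causes fragile X syndrome. FVB/N males of 8 to 10 weeks, KO and WT littermates, gave dentate gyrus cells, and both genotypes were cultured with FGF-2 and EGF at 20 ng/ml each. All cultures received 100 µg/ml of cycloheximide, which holds ribosomes in place on the mRNA, during their last 10 min. Each lysate was split for cytoplasmic RNA and for ribosome-protected fragments (footprints), giving 4 KO RNA, 4 KO footprint, 4 WT RNA and 4 WT footprint libraries from 8 independently isolated cultures. How many animals went into a culture is not given in the sources used here, and the cells are a culture-expanded population, not cells taken directly from tissue.

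RNA libraries held 5343042 to 6600023 counts and footprint libraries 9430732 to 17220236, and the 33 genes held 0.823% to 1.3% of RNA counts and 0.786% to 1.17% of footprint counts. The smallest count of any of the 33 genes in any library was 54 in RNA and 49 in footprints, so all 33 passed the filter on low counts in every comparison. Levels of one gene between libraries are given as CPM, counts scaled to the library total, after TMM scaling within an assay. Fmr1 footprints were 24.1, 26.98, 12.7 and 14.7 CPM in KO cultures and 129, 149.7, 149 and 149 CPM in WT cultures. The log2 fold change was -2.93 (SE 0.22, edgeR quasi-likelihood test, adjusted p = 0.014). Fmr1 RNA was 8.63, 30.9, 10.7 and 3.35 CPM in KO cultures and 40.9, 107, 37.3 and 27.4 CPM in WT cultures, where KO 2 exceeded WT 4 (-1.99, SE 0.67, edgeR adjusted p = 1). Of 12 neural stem and progenitor markers, 11 were tested in RNA, with Nes at 1855 to 2878 CPM in KO and 1713 to 3107 CPM in WT cultures, and Prom1 was at or near 0. Microglial markers summed to at most 1.302 CPM, while 8 of 9 astrocyte, 7 of 12 oligodendrocyte-lineage, 4 of 10 neuronal and 2 of 8 endothelial and mural markers passed the filter in RNA. WT culture 1 stood apart from the others, as its proliferation and sterol genes show further on, and the main results between genotypes that change without it are given both ways. Cells were analysed in bulk, so fewer cells of a type and less RNA per cell cannot be told apart.

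Upstream sequences were available for 26 of the 33 genes, in 34 windows of 300 bases (250 before and 50 from an annotated start; RefSeq, GRCm38.p6). They were searched on both strands for TCACNCCAC, a core of the sterol regulatory element to which SREBPs bind, and for CCAAT, the box bound by NF-Y, a factor known to act beside SREBPs. No matches of different motifs shared bases in these windows. The sterol element core was in 1 of 34 windows (2.94%, against 1.24% of all 32851 windows of the table), that of Hmgcs1. CCAAT was in 22 of 34 windows (64.7%, against 37.4% of all windows) and in 14 of 18 windows of sterol synthesis enzymes (77.8%). Also searched were CACGTG, the E-box, found in 6 of 34 windows (17.6%, against 7.15%), and GGGCGG, the Sp1 site, found in 26 of 34 (76.5%, against 35.7%). A match is a run of letters, not a shown binding site. The windows below belong to the gene with the sterol element core, to both genes that passed the test between culture sets in RNA and in footprints, and to the gene that stood furthest apart between genotypes, for which 2 of its 3 windows hold a CCAAT box. Counts per gene do not separate its start sites. Capitals mark TCACNCCAC and CCAAT, the CCAAT box on the other strand reading ATTGG; each window is written 5′ to 3′ on the gene's strand.
Hmgcs1, chr13:119690101-119690400, plus strand: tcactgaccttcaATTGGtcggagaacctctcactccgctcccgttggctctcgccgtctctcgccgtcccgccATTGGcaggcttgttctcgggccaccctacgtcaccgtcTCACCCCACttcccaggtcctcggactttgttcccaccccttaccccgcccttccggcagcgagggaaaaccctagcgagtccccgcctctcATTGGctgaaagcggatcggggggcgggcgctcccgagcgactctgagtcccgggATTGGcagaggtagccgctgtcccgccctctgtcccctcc
Mvk, chr5:114444019-114444318, plus strand: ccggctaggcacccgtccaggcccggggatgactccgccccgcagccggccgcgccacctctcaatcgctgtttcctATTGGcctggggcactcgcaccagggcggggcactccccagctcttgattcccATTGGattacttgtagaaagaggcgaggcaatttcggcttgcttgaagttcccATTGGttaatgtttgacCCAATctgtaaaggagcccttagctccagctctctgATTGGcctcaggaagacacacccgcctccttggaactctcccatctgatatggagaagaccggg
Ebp, chrX:8193463-8193762, minus strand: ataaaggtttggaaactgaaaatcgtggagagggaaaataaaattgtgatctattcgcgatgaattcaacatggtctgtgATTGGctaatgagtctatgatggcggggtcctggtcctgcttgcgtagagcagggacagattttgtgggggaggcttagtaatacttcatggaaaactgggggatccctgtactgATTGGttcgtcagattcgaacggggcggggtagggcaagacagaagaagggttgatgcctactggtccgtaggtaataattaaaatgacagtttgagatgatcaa
Srebf1, upstream start, chr11:60222532-60222831, minus strand: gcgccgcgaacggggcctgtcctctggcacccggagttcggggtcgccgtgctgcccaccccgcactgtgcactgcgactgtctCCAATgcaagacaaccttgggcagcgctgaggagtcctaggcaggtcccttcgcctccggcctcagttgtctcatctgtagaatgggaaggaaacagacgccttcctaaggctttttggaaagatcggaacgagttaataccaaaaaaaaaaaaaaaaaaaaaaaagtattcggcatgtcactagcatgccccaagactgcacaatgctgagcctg
Srebf1, downstream start, chr11:60210422-60210721, minus strand: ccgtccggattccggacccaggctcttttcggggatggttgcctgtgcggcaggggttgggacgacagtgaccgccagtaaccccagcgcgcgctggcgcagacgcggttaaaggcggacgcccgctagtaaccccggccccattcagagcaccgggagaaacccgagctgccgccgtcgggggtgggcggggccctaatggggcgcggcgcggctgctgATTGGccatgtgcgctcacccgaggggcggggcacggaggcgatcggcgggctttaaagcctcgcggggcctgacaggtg
The Mvk window holds 5 CCAAT boxes, the highest number among the 34 windows, and the Hmgcs1 window holds 4 beside the sterol element core, which begins 137 bases before the start.

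Levels differed widely between the genes. In TPM, transcript levels scaled by length that were deposited as rounded values, Scd2, the main stearoyl-CoA desaturase of brain, had the highest RNA level at 1726 ± 468 TPM (mean ± SD over 8 libraries). It was followed by Hmgcs1, the HMG-CoA synthase of the mevalonate pathway, at 573 ± 221 TPM. Next came Fads2, the delta-6 desaturase, at 559.9 ± 204 TPM and Fdps, the farnesyl diphosphate synthase, at 488 ± 186 TPM, and these levels lie within 1 SD of that of Hmgcs1. The lowest RNA level was that of Acss2, which makes acetyl-CoA from acetate, at 21.6 ± 7.48 TPM. Srebf2 RNA averaged 343 ± 53.9 TPM and Srebf1 RNA 38.2 ± 25.8 TPM. In footprints Scd2 and Hmgcs1 were again highest, at 1095 ± 246 and 1007 ± 208 TPM, followed by Idi1, the isopentenyl diphosphate isomerase, at 802 ± 187 TPM, while Scap was lowest at 10.1 ± 1.36 TPM. Scd1 and Scd2 are close paralogs, so reads that match both could be divided between them by the authors' estimation, and their levels are uncertain to that extent.

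The first question was whether loss of FMRP altered the RNA or the ribosome occupancy of these genes. None of the 33 passed the threshold of 0.05 on the adjusted p in RNA (edgeR quasi-likelihood test with Benjamini-Hochberg adjustment; 0.00901% of the 11097 genes tested were called higher and 0% lower) or in footprints (0.0262% of 11472 called higher and 0.00872% lower). With no adjustment, 1 gene had a p under 0.05 and was higher in KO RNA, Srebf1, and none had one and was lower (0.802% and 1.07% of all genes). In footprints Srebf1 was higher and Hsd17b7 lower (2.06% and 2.54% of all genes). DESeq2 called none of the 33 in RNA and 1, Srebf1, in footprints, where it called 56 of all 11472 genes higher and 26 lower. The log2 fold change was above 0 for 23 of 33 genes in RNA (51.3% of all genes) and for 24 of 33 in footprints (51.2%). The median over the 33 was 0.09 in RNA and 0.08 in footprints, beside 0.01 in each assay over all genes. Without WT replicate 1 these medians were -0.05 and -0.09, with 16 of 33 genes above 0 in RNA and 7 of 33 in footprints. The counts also moved with other libraries. Without KO replicate 1, 17 of 33 were above 0 in RNA (median 0.02) and 12 of 33 in footprints (median -0.05). In replicates 3 and 4 alone, 8 of 33 were above 0 in footprints (median -0.07). The counts rose to 28 of 33 in RNA without WT replicate 4 and to 27 of 33 in footprints without WT replicate 2. The 95% interval lay within a 2-fold change in either direction for 27 of 33 genes in RNA (54.6% of all genes) and for 30 of 33 in footprints (75.1%). For most of these genes the data thus limited a genotype difference to less than 2-fold, without showing that the genotypes were alike.

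**Figure D1:**
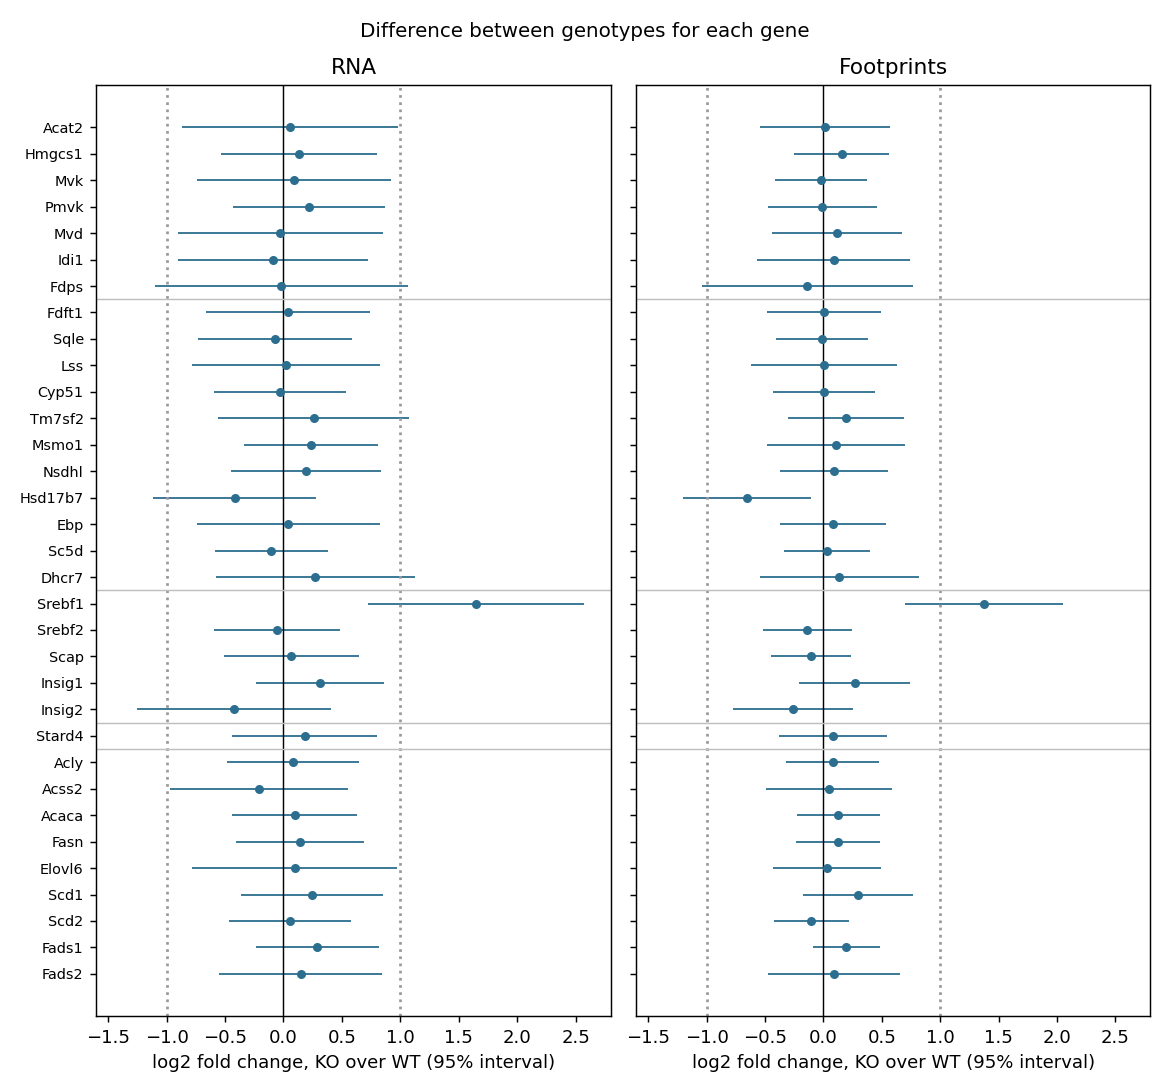
Log2 fold change of KO over WT (x axis) for each of the 33 genes (rows), in RNA (left) and footprints (right), with 95% intervals from edgeR; horizontal lines separate the 5 roles and dotted lines mark a 2-fold change. Srebf1 stands apart at 1.65 in RNA and 1.38 in footprints, the other genes lie between -0.66 and 0.31, and no gene passed the adjusted threshold.

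Among the regulators, Srebf1 had the largest difference between genotypes of the 33 genes. Srebf1 RNA was 237, 133, 138 and 308 CPM in the 4 KO cultures and 72.7, 32.3, 104 and 51.5 CPM in the 4 WT cultures. Srebf1 footprints were 110.1, 105, 81.4 and 119 CPM in KO cultures and 46.2, 34.4, 57.8 and 21.7 CPM in WT cultures. In both assays every KO library was above every WT library, which by itself makes KO the higher in 4 of 4 pairs. Groups that do not overlap with KO higher were found for 0.703% of all genes in RNA and 1.04% in footprints, and Srebf1 was the only gene of the 33 whose groups did not overlap in either direction (1.28% of all genes in RNA and 1.88% in footprints). The log2 fold change was 1.65 in RNA (SE 0.41, 95% interval 0.73 to 2.57, edgeR adjusted p = 1). In footprints it was 1.38 (SE 0.29, 95% interval 0.70 to 2.05, edgeR adjusted p = 0.407). DESeq2 gave an adjusted p of 0.057 in RNA and 0.00207 in footprints, while over all alternatives the adjusted p lay between 0.057 and 1 in RNA and between 0.00207 and 1 in footprints, where 1 of 15 passed. The log2 fold change stayed between 1.37 and 1.97 under the 13 RNA alternatives and between 1.17 and 1.72 under the 15 footprint alternatives, and was 1.71 and 1.46 without WT replicate 1. The annotated Srebf1 gene shares 114 bases with Rai1. Rai1 RNA was 109 to 135 CPM in KO and 117 to 131 CPM in WT cultures, with a log2 fold change of -0.03.

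**Figure D2:**
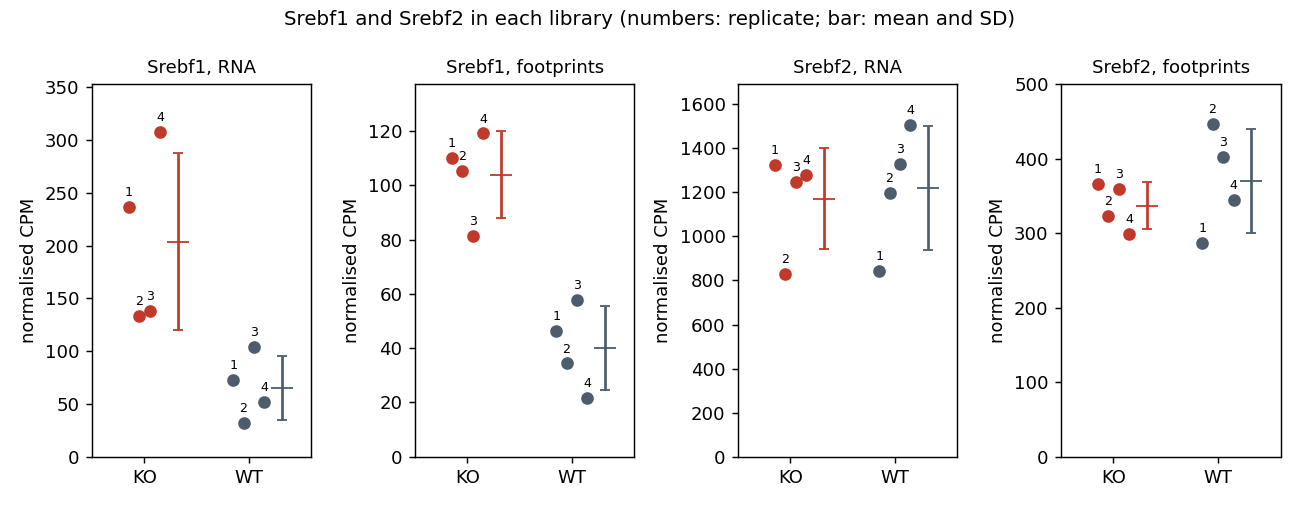
Normalised CPM (y axes, each starting at 0) of Srebf1 and Srebf2 in RNA and footprints, with KO at the left and WT at the right of each panel; points are libraries numbered by replicate and bars give the mean and SD of 4. All 4 KO points of Srebf1 lie above the WT points in both assays, whereas the KO and WT points of Srebf2 overlap.

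The other regulators did not separate by genotype. Srebf2 RNA was 1326, 830.4, 1249 and 1278 CPM in KO cultures and 842, 1198, 1328 and 1506 CPM in WT cultures, with a log2 fold change of -0.06 (SE 0.24; 95% interval -0.60 to 0.48). Its footprints were 366, 323, 359.6 and 299 CPM in KO and 286, 447, 403 and 345 CPM in WT cultures (-0.14, SE 0.17). The groups overlapped in both assays, and the low RNA values were those of KO 2 and WT 1. Scap RNA was 450, 378, 579.5 and 627 CPM in KO and 420.3, 346, 649 and 524 CPM in WT cultures, beside 36.4, 43.4, 45.4 and 42.9 CPM of footprints in KO and 44.8, 43.4, 55.1 and 36.99 CPM in WT cultures. Its log2 fold changes were 0.07 in RNA (SE 0.26) and -0.10 in footprints (SE 0.15). For the sterol sensors Insig1 and Insig2 the RNA differences were 0.31 (SE 0.24) and -0.43 (SE 0.37), and neither passed even the unadjusted threshold. Insig2 RNA was lower in the KO library of 4 of 4 pairs, as 7.26% of all genes were, but the groups overlapped.

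Enzymes of the mevalonate pathway showed no called difference in either assay. Hmgcs1 RNA was 1090, 995, 704 and 554 CPM in KO cultures and 630.1, 1153, 656 and 614 CPM in WT cultures, the highest value being that of WT 2. Hmgcs1 footprints were 2218, 1944, 1593 and 1479 CPM in KO and 1252, 2018, 1558 and 1592 CPM in WT cultures. The ranges overlapped in both assays, with log2 fold changes of 0.13 in RNA (SE 0.30) and 0.16 in footprints (SE 0.18). Pmvk, the phosphomevalonate kinase, had RNA levels of 19.98, 19.2, 32.4 and 22.2 CPM in KO cultures and 16.1, 18.3, 29.4 and 17.1 CPM in WT cultures. KO was the higher of each of the 4 pairs, as for 8.13% of all genes, but replicate 3 was high in both genotypes and the groups overlapped. Pmvk footprints were 44.2, 34.4, 56.3 and 37.3 CPM in KO and 28.5, 46.2, 52.7 and 46.9 CPM in WT cultures, with KO higher in 2 of 4 pairs. The log2 fold change of Pmvk was 0.22 in RNA (SE 0.29) and -0.01 in footprints (SE 0.20). Over the 7 genes the RNA differences ran from -0.09 to 0.22 and the footprint differences from -0.14 to 0.16. The widest interval was that of Fdps, -1.10 to 1.06 in RNA and -1.04 to 0.76 in footprints. In each assay 4 of 7 genes were above 0 (51.3% of all genes in RNA and 51.2% in footprints). Without WT replicate 1, 2 of 7 were above 0 in RNA (50.2% of all genes) and 0 of 7 in footprints (51.6%). Their medians were then -0.21 and -0.15.

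Of the 11 genes from squalene synthase to the last reductase step, Hsd17b7, the 3-keto reductase of the C4 demethylation steps, differed most. Its footprints were 29.9, 38.1, 45.5 and 36.05 CPM in KO cultures and 51.6, 57.9, 85.96 and 39.7 CPM in WT cultures. The KO library was the lower of the pair in 4 of 4 pairs (6.85% of all genes), yet WT 4 lay within the KO range. The footprint log2 fold change was -0.66 (SE 0.24, edgeR adjusted p = 0.985), and -0.41 without WT replicate 3. Hsd17b7 RNA was 17.4, 14.9, 19.04 and 17.4 CPM in KO and 23.2, 24.9, 31.99 and 11.7 CPM in WT cultures, with WT 4 the lowest of all 8 libraries and a log2 fold change of -0.42 (SE 0.31). Cyp51, the lanosterol 14-alpha-demethylase and the most abundant RNA of this group, was at 525, 343, 468 and 401 CPM in KO RNA and 274, 511, 482 and 504 CPM in WT RNA. Its footprints were 670.3, 568, 659 and 599.5 CPM in KO and 405, 682, 773 and 649.7 CPM in WT cultures. WT 1 was the lowest library in both assays and the groups overlapped, with differences of -0.03 in RNA (SE 0.25) and 0.01 in footprints (SE 0.19). The other 9 genes of this group lay between -0.11 and 0.27 in RNA and between -0.01 and 0.19 in footprints. Of all 11 genes, 7 were above 0 in RNA (51.3% of all genes) and 9 in footprints (51.2%). Without WT replicate 1, 4 of 11 were above 0 in RNA (50.2% of all genes) and 1 of 11 in footprints (51.6%). Their medians were then -0.16 and -0.12.

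Stard4, which carries cholesterol between membranes in the cytosol, had RNA levels of 20.8, 24.4, 25.4 and 18.9 CPM in KO cultures and 13.6, 25.8, 23.9 and 15.5 CPM in WT cultures. Its footprints were 54.98, 39.5, 55.95 and 52.2 CPM in KO and 28.98, 49.8, 61.8 and 53.9 CPM in WT cultures. The groups overlapped, and the log2 fold changes were 0.18 (SE 0.28) and 0.08 (SE 0.20).

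The fatty acid genes, among them targets of SREBP1 in other tissues, did not pass the test either, and 8 of 9 had a positive difference in each assay (51.3% of all genes in RNA and 51.2% in footprints). Without WT replicate 1, 6 of 9 were positive in RNA (50.2% of all genes) and 4 of 9 in footprints (51.6%). Scd2 RNA was 2180, 1529, 1182 and 1307 CPM in KO and 1750, 1536, 1272 and 1396 CPM in WT cultures, and its footprints were 1518, 1185, 1036 and 1045 CPM in KO and 1573, 1241, 1057 and 1246 CPM in WT cultures. Culture 1 was highest in both genotypes and both assays, and the differences were 0.06 in RNA (SE 0.23) and -0.10 in footprints (SE 0.14). Fads1, the delta-5 desaturase, was at 656, 410.4, 438 and 384 CPM in KO RNA and 489.7, 368, 353 and 333 CPM in WT RNA. Fads1 footprints were 405, 329.9, 278 and 253 CPM in KO and 342, 283, 243 and 233 CPM in WT cultures. KO exceeded WT in 4 of 4 pairs in both assays, as 8.13% of all genes did in RNA and 7.61% in footprints, with overlapping groups. The differences of Fads1 were 0.29 in RNA (SE 0.24) and 0.20 in footprints (SE 0.12). Acss2 RNA was 57.7, 34.7, 43.5 and 25.4 CPM in KO and 39.3, 53.5, 27.2 and 66.4 CPM in WT cultures, and the groups overlapped widely (-0.21, SE 0.34). Its footprints were 63.05, 48.4, 48.3 and 25.7 CPM in KO and 43.7, 61.04, 30.3 and 43.1 CPM in WT cultures (0.05, SE 0.23). For Fasn, the fatty acid synthase, the 95% interval of the difference was -0.41 to 0.69 in RNA and -0.24 to 0.48 in footprints. For Acaca, which makes malonyl-CoA for it, the interval was -0.44 to 0.63 in RNA and -0.23 to 0.49 in footprints. All 9 RNA intervals of the fatty acid genes lay within a 2-fold change. Acaca overlaps Gm11437, and Fdft1, the squalene synthase, overlaps Ctsb by 774 bases, so their counts are uncertain to the extent that such reads were shared.

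Translation efficiency, the change of footprints relative to RNA, was tested as the interaction of assay and genotype. None of the 33 genes passed (edgeR, 0% of the 10863 genes tested in either direction; at an unadjusted p under 0.05, 0.0644% were higher and 0.0644% lower, and none of the 33; DESeq2 called none of the 33). The differences ran from -0.26 for Srebf1 (SE 0.53) to 0.27 for Acss2 (SE 0.44). The median was -0.04, beside 0.01 over all genes, and 11 of 33 were above 0 (53.1% of all genes). Pmvk had the smallest p at 0.548, with a difference of -0.22 (SE 0.35). Scap differed by -0.16 (SE 0.30) and was lower in KO in 4 of 4 pairs, as 6.83% of all genes were. Idi1 differed by 0.18 (SE 0.49) and was higher in KO in 4 of 4 pairs, as 5.35% of all genes were. The 95% interval lay within a 2-fold change for 20 of 33 genes (51.2% of all genes), fewer than in either assay. The interval of the efficiency difference of Srebf1, -1.40 to 0.88, reached past a 2-fold change on its negative side. Both assays of a culture came from the same lysate, but this fit held no term for the culture. Its intervals may thus include differences between cultures, which limits what its lack of calls can show. With the culture as a block, 77 of 10863 genes were higher and 71 lower by the unadjusted threshold (7 and 7 in the main fit). None of the 33 was among them, and no gene passed the adjusted threshold.

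The ratio of footprints to RNA itself varied far more between genes than between genotypes. On the log2 scale of footprint CPM over RNA CPM, Idi1 was highest at 3.35 (mean of 8 cultures, range 2.98 to 3.69), above 99.2% of genes. Its RNA ran from 28.7 to 101 CPM and its footprints from 328 to 881 CPM over the 8 cultures. Elovl6, which elongates palmitate, followed at 1.79 (0.70 to 3.02), then Hsd17b7 at 1.23, Stard4 at 1.22 and Hmgcs1 at 1.12. Scap was lowest at -3.47 (-3.85 to -2.98), with only 0.506% of genes below it, followed by Srebf2 at -1.74, Acat2, the cytosolic thiolase, at -1.72 and Mvk, the mevalonate kinase, at -1.59. Neighbouring genes of the pathway thus lay far apart, with Mvk at -1.59 and Pmvk, which acts on its product, at 0.98. The median over all genes was -0.14, and 15 of the 33 were above it. Footprints lie mainly in coding sequence and RNA reads come from the whole transcript, so the ratio also depends on the share of a transcript that codes, and the libraries of both assays were made by different methods.

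**Figure D3:**
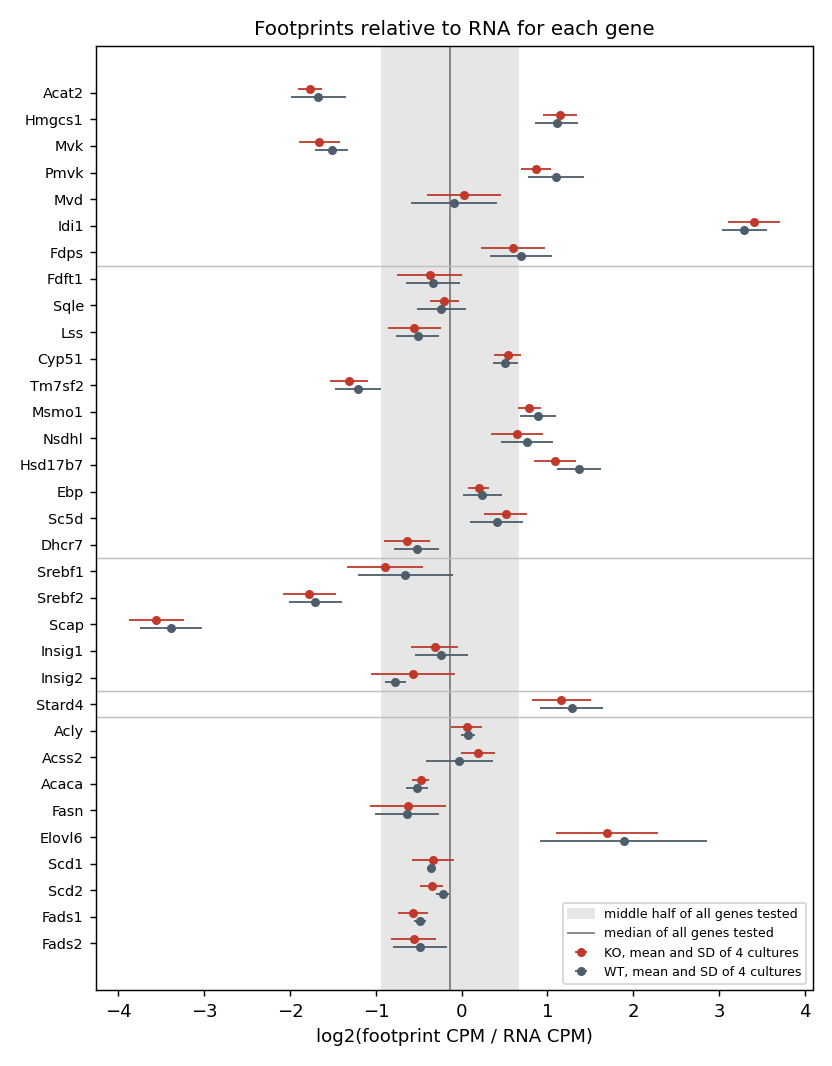
Log2 of footprint CPM over RNA CPM (x axis) for each of the 33 genes (rows), as mean and SD of 4 KO cultures (red) and 4 WT cultures (grey); the band spans the quartiles of all genes tested and the line their median of -0.14. Idi1 at 3.35 and Scap at -3.47 lie at the extremes, and the KO and WT means of each gene lie close together.

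Cultures differed among themselves, and 1 WT culture stood apart in sterol synthesis. Summed over the 18 mevalonate and sterol enzymes, RNA was 4075, 2825, 3830 and 3544 CPM in KO cultures and 2011, 3793, 3607 and 4309 CPM in WT cultures. The summed footprints were 5935, 4881, 5695 and 5004 CPM in KO and 3105, 6071, 5764 and 5901 CPM in WT cultures. WT 1 was the lowest of the 8 libraries in each assay, and KO 2 the next lowest. WT 1 was the lowest library for 16 of the 18 enzymes in RNA and for 16 of 18 in footprints (88.9% each), while it was lowest for 23% of all genes in RNA and 27.7% in footprints. The ratio of WT 1 to the median of the other 7 libraries had a median of 0.432 in RNA and 0.477 in footprints over the mevalonate genes, and of 0.514 and 0.544 over the squalene and sterol genes. It reached 0.272 in RNA and 0.275 in footprints for Fdps. Hsd17b7 was an exception among the enzymes, at 1.33 in RNA and 1.3 in footprints.

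For the fatty acid genes the median ratio of WT 1 to the other libraries was 0.869 in RNA and 0.85 in footprints, with Scd1 low at 0.545 and 0.461 and Fads2 high at 1.75 and 2.26. Fads2 RNA was 906, 588, 609 and 646 CPM in KO cultures and 1032, 394, 533 and 524 CPM in WT cultures, with WT 1 the highest of the 8. Other genes moved in the same culture. The 10 proliferation genes (Mki67, Top2a, Ccnb1 and others) summed to 2397, 3202, 2995 and 2973 CPM in KO RNA and to 641, 2292, 2659 and 3242 CPM in WT RNA, lowest in WT 1. Their summed footprints were 5107, 5329, 5378 and 5208 CPM in KO and 1300, 4264, 4924 and 4962 CPM in WT cultures. Apoe, the lipoprotein component made by astrocytes, was at 1291, 1469, 55.8 and 69.6 CPM in KO RNA and 3513, 502, 16.3 and 13.6 CPM in WT RNA. The 9 astrocyte markers summed to 3240, 3433, 1910 and 1386 CPM in KO RNA and 3631, 1840, 874 and 1024 CPM in WT RNA, highest in WT 1. Single markers did not all peak there, as Gfap was highest in WT 2 at 132 CPM and Aqp4 in KO 2 at 2.16 CPM. Sparcl1, a marker in these sums, had 3844 to 6949 counts in KO RNA and 246 to 1472 in WT RNA. Between genotypes, 6 of the 8 astrocyte markers tested in RNA had a negative difference and 2 a positive one. The part of these differences between cultures in the sterol result was not tested.

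**Figure D4:**
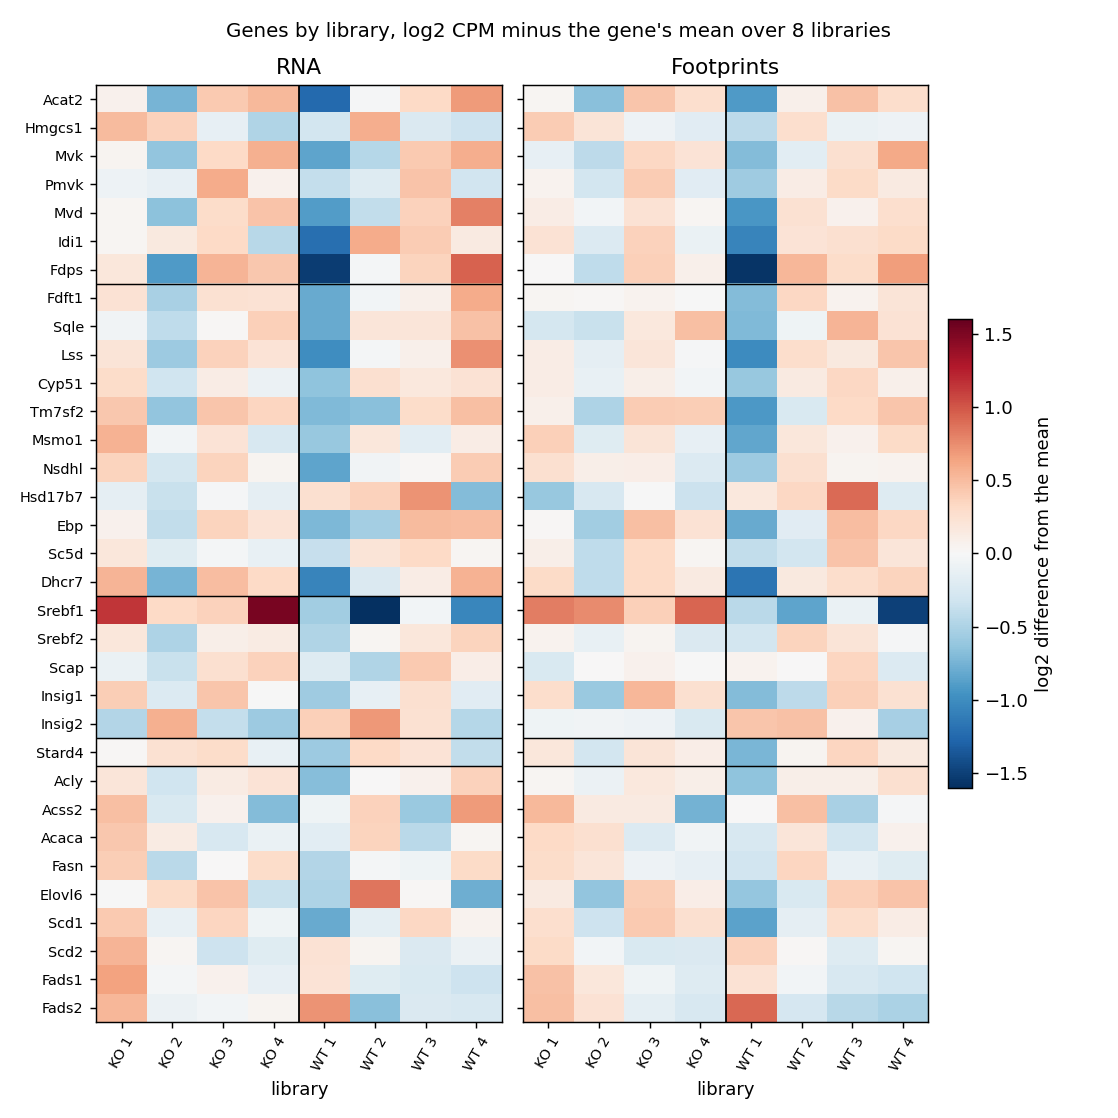
Level of each of the 33 genes (rows, in the order of their roles) in each library (columns, KO 1 to 4 then WT 1 to 4) as log2 CPM minus the gene's mean over the 8 libraries of the assay, for RNA and footprints; red is above and blue below the mean. WT 1 is the lowest column for 16 of 18 sterol enzymes in each assay and the highest for Fads2, and the Srebf1 row is above its mean in the KO columns and below it in the WT columns.

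Replicates 1 and 2 differ from 3 and 4 by the length of the molecular identifier in their footprint libraries (5 and 8 nt), and the genes were compared between these sets with genotype in the fit. In RNA 4 of 33 genes were called higher in cultures 3 and 4 than in cultures 1 and 2 (edgeR; 12.1% of all genes were) and none lower (13.1% of all genes were). The 4 genes are 12.1% of the 33, the share found among all genes. At an unadjusted p under 0.05, 8 were higher (20% of all genes) and 2, Scd2 and Hmgcs1, lower (21.7%). DESeq2 called 7 of the 33 higher and these 2 lower, beside 1720 higher and 2068 lower among all 11097 genes. The genes called were Mvk, Mvd, which makes isopentenyl pyrophosphate, Scap and Ebp, the sterol isomerase. Mvk RNA was 123, 147, 133 and 149 CPM in KO 3, KO 4, WT 3 and WT 4, against 102, 63.6, 55.2 and 72.2 CPM in KO 1, KO 2, WT 1 and WT 2. The sets did not overlap and the log2 fold change was 0.92 (SE 0.20, edgeR adjusted p = 0.0162). In the same library order, Mvd RNA was 73.6, 81.97, 77.01 and 104 CPM in cultures 3 and 4 and 60.95, 37.7, 31.8 and 45.5 CPM in cultures 1 and 2 (0.94, SE 0.23, edgeR adjusted p = 0.0231). Ebp RNA was 30.8, 27.9, 34.1 and 33.98 CPM in cultures 3 and 4 and 25.1, 18.1, 14.3 and 16.3 CPM in cultures 1 and 2 (0.79, SE 0.22, edgeR adjusted p = 0.0323). For Scap the values of both sets are among those given above, and its difference was 0.58 (SE 0.15, edgeR adjusted p = 0.0249). The sets did not overlap for any of these 4 genes in RNA. Over all 33 genes, 6 were higher without overlap (16.6% of all genes) and 1, Scd2, lower (14.6%). Over 11 alternatives Mvk passed in 10, Mvd in 7, Scap in 6 and Ebp in 4.

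Footprints gave 4 genes higher in cultures 3 and 4 (7.56% of all genes were) and 1 lower (11.5% of all genes were). At an unadjusted p under 0.05, 9 were higher (17.4% of all genes) and 4 lower (20.1%), and the sets did not overlap for 6 higher genes (15.6%) and for 1 lower gene, Fads1 (16%). Mvk footprints were 41.1, 37.99, 39.2 and 50.1 CPM in KO 3, KO 4, WT 3 and WT 4, against 29.8, 24.2, 19.9 and 29.04 CPM in KO 1, KO 2, WT 1 and WT 2 (0.71, SE 0.17, edgeR adjusted p = 0.0297). For Sqle, the squalene epoxidase, they were 361, 448, 468 and 377 CPM in cultures 3 and 4 and 265, 252, 196 and 308 CPM in cultures 1 and 2 (0.70, SE 0.17, edgeR adjusted p = 0.0314). Ebp differed by 0.75 (SE 0.20, edgeR adjusted p = 0.0372) and Tm7sf2, a sterol reductase, by 0.78 (SE 0.22, edgeR adjusted p = 0.0434). Fads1 was lower, at 278, 253, 243 and 233 CPM in cultures 3 and 4 and 405, 329.9, 342 and 283 CPM in cultures 1 and 2 (-0.43, SE 0.12, edgeR adjusted p = 0.0475). Over all 33 genes, 23 had a positive difference in RNA (48.5% of all genes) and 22 in footprints (50.1%). Of the 18 sterol enzymes, 16 had a positive difference in RNA and 16 in footprints, with medians of 0.51 and 0.34, while 3 of 9 fatty acid genes did in each assay, with medians of -0.34 and -0.28. WT 1 belongs to cultures 1 and 2 and was the lowest library for 16 of the 18 sterol enzymes in each assay. The counts and medians of these 2 groups are given with all libraries only, so how far they rest on WT 1 is not shown. Over all genes the medians were -0.03 in RNA and 0.0011 in footprints.

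Hmgcs1 went against the other mevalonate genes, at -0.61 in RNA (SE 0.20, edgeR adjusted p = 0.0581), which did not pass. These counts changed with single libraries. Without WT replicate 4 none of the 33 was called in RNA (483 of all 11272 genes were higher and 608 lower). Without KO replicate 1 there were 8, all higher (1311 of all 11243 genes were higher and 1544 lower). Without KO replicate 2 or 4 or WT replicate 3 Mvk alone was called in RNA, with 558 to 651 of all genes higher. Footprints gave 0 of the 33 higher without KO replicate 2, 3 or 4 and without WT replicate 3 or 4, with 86 to 425 of all genes higher. Without WT replicate 1, Mvk, Mvd and Scap remained called higher in RNA and Hmgcs1 was called lower (996 and 1305 of all 11235 genes). In footprints Mvk and Sqle then remained called higher, Hmgcs1 and Fasn were called lower, and Fads1 no longer passed (846 higher and 1087 lower of all 11541 genes). The median over the 33 genes was 0.315 in RNA and 0.25 in footprints with all libraries, and 0.14 and 0.10 without WT replicate 1. Of 10 proliferation genes, 4 were called higher in cultures 3 and 4 in RNA (median 0.90, with 2 of 10 negative) and none in footprints (median 0.70). Of the astrocyte markers tested, 6 of 8 were called lower in RNA (median -1.29) and 6 of 9 in footprints (median -1.03). Their part in the result was not tested, and culture set and identifier length cannot be told apart in footprints.

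**Figure D5:**
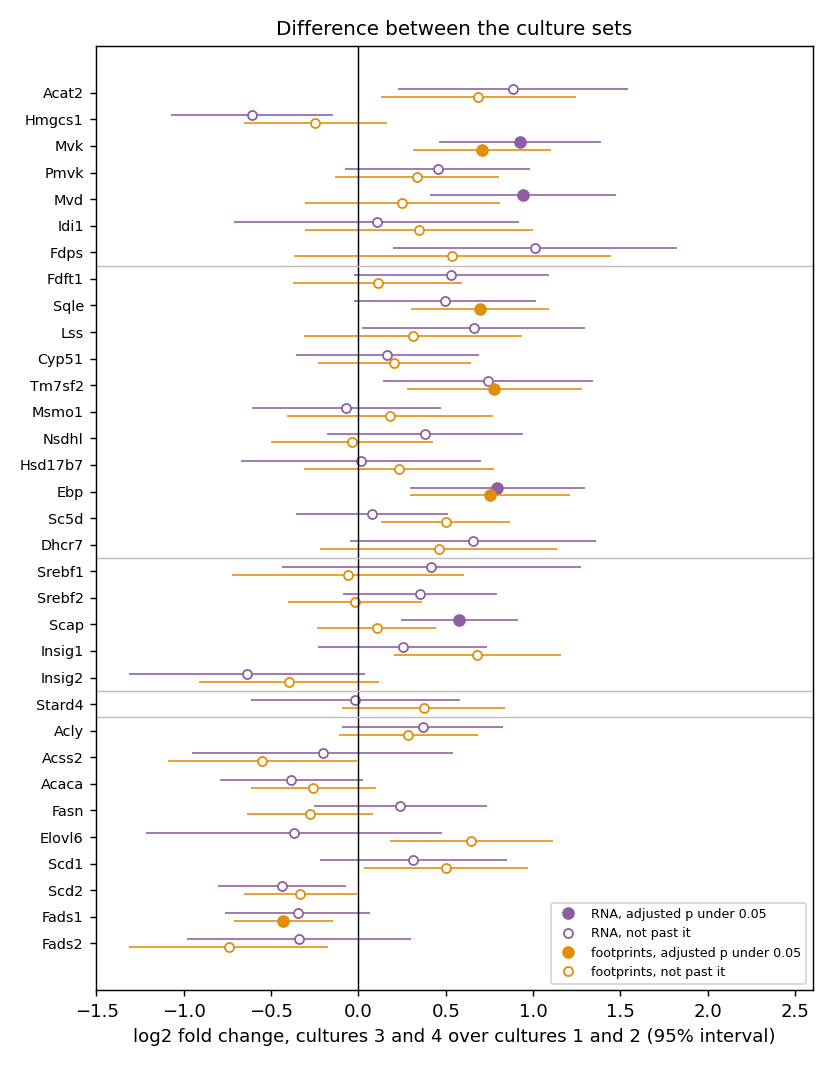
Log2 fold change of cultures 3 and 4 over cultures 1 and 2 (x axis, 95% interval) for each of the 33 genes (rows), in RNA (purple) and footprints (orange); filled points passed an adjusted p of 0.05 in edgeR. With all libraries in the fit, WT 1 among them, most mevalonate and sterol genes lie right of 0, with Hmgcs1 left of it, and most fatty acid genes lie left of 0.

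Genes of neighbouring lipid pathways gave no called difference between genotypes. Of 102 genes in 7 lists, 95 were tested in RNA, 95 in footprints and 94 for translation efficiency, and none passed in any of these with edgeR or with DESeq2. At an unadjusted p under 0.05, edgeR found 1 of 95 higher in RNA, Acsl5 (0.802% of all genes), and 1 of 95 lower in footprints, Lrp8 (2.54% of all genes). In fatty acid activation, Acsl5, a long-chain acyl-CoA synthetase, had RNA levels of 16.1, 11.4, 34.02 and 10.97 CPM in KO and 3.34, 12.9, 0.495 and 4.07 CPM in WT cultures (1.79, SE 0.76, edgeR adjusted p = 1). WT 2 lay within the KO range, and the difference became 1.29 when KO replicate 3 was left out and 2.77 when WT replicate 2 was. Lrp8, a receptor for Apoe and reelin, had footprints of 20.3, 20.98, 28.9 and 32.1 CPM in KO and 24.6, 26.1, 34.6 and 37.9 CPM in WT cultures, lower in KO in 4 of 4 pairs, as 6.85% of all genes were (-0.27, SE 0.11, edgeR adjusted p = 0.999). In fatty acid oxidation, Slc25a20, the mitochondrial carnitine carrier, had footprints of 13.9, 16.6, 20.3 and 2.69 CPM in KO and 35.95, 21.6, 31.5 and 13.3 CPM in WT cultures, with overlapping groups and replicate 4 the lowest of each genotype (-0.94, SE 0.54; -1.61 without KO replicate 3 and -0.60 without KO replicate 4). For Zmpste24, a protease of prenylated proteins, the footprint difference was 0.15 (SE 0.12), for Agpat1, an enzyme of phosphatidic acid synthesis, the RNA difference was 0.32 (SE 0.22), and for Apoe the footprint difference was 1.08 (SE 0.77). Over the alternatives the footprint value of Apoe lay between -0.46 in replicates 1 and 2 alone and 2.69 in replicates 3 and 4 alone, and that of Zmpste24 between -0.025 and 0.33. The list medians lay between -0.09 and 0.12 for RNA and between -0.06 and 0.09 for footprints, beside 0.01 over all genes.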

How the data were processed

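The deposited tables hold estimated counts per gene, which the authors made with RSEM 1.2.11 per the labels and the submitters' processing notes, and TPM values that the authors rounded to whole numbers and that were used here as a level score between genes only. The submitters' processing notes also name the aligners TopHat2 2.0.9 and Bowtie2 2.1.0, the trimmer cutadapt 1.7.1, the tools bedtools 2.22.0 and SAMtools 0.0.19, and the mm10 build, without saying what each did; whether counting used strand, and how identifiers were handled, is not given in the sources used here. The depth of each library is given in the report as a range.

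The estimated counts were rounded, 27 of 20436 rows with a bare number as name (0.244% to 0.422% of counts) were left out, and 20409 genes remained, of which 19269 matched RefSeq symbols. Tests were edgeR 4.0.16 quasi-likelihood tests in R 4.3.3 with limma 3.58.1 (TMM within an assay, filterByExpr by genotype, Benjamini-Hochberg adjustment over all genes tested, threshold 0.05, two-sided). The fits were also run on simulated counts of independent libraries. Those counts held no effect shared by libraries of the same culture or replicate number, so that run does not cover such effects. The footprint fit held identifier length (5 or 8 nt) as a term. Translation efficiency was the interaction of assay and genotype over 16 libraries, with no term for the culture, and culture sets were compared with genotype in the fit. CPM are TMM-scaled, and log2 levels have 0.5 added.

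Replicates are independently isolated cells per the labels, and p-values measure the spread between them. Same-numbered KO and WT libraries deviated together from their group means (correlation over genes 0.497 to 0.62 in RNA and 0.391 to 0.555 in footprints), and differently numbered ones had -0.553 to 0.379 and -0.471 to 0.456, so the replicate number was also tried as a block. Alternatives were DESeq2 1.42.0, RLE size factors, no filter on low counts, that block, the identifier term left out, each set alone, the set as a term in RNA, the culture as a block, and each library left out.

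The 33 genes, the pathway and marker lists and the tests were chosen with earlier results of these data known. In every library values are given for the most abundant gene by RNA TPM of each role and those with the smallest p in each genotype test, for the 4 with the smallest p between culture sets in at least 1 assay, and for the gene with the smallest p of most pathway lists; other genes named were chosen after their values were seen. Hacd genes (3) were matched by an older symbol. Sequences are credited to RefSeq GRCm38.p6, and 7 of the 33 genes had no window there.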

Additional observations from a re-analysis of the deposited data

Results flagged for a closer look

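Of 112 groups of 4 libraries checked, 10 held a library whose distance to the nearest other relative to the group's range exceeded Dixon's critical value; chance marks about 1 in 20 groups. Hmgcs1 was 1153 CPM in WT RNA 2, against 614.4 to 655.5 CPM in the other WT RNA libraries. Pmvk was 29.35 CPM in WT RNA 3 (others 16.11 to 18.29), and Cyp51 was 273.6 CPM in WT RNA 1 (others 481.5 to 511.1). In KO RNA 2, Srebf2 was 830.4 CPM (others 1249 to 1326) and Tm7sf2 22.24 CPM (others 44.03 to 47.2). Apoe was 3513 CPM in WT RNA 1 (others 13.62 to 502), and Acsl5 was 13.75 CPM in KO footprints 3 (others 4.399 to 5.705). The mean log2 CPM over all 33 genes was 6.556 in WT footprints 1 (others 7.124 to 7.219), and that over the mevalonate genes was 6.395 in the same library (others 7.458 to 7.587). For the SREBP regulators it was 7.577 in WT RNA 3 (others 7.044 to 7.122). Those 3 means are on the log2 scale.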

How the results depend on the processing

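The smallest count of any of the 33 genes in a library was 49, and each group had 4 cultures. Of 592 values of single genes under an alternative, 502 kept their direction and their side of the threshold, 40 changed sign, 49 no longer passed and 1 newly passed. With the replicate number as a block, 0 genes were called higher in RNA and 0 higher and 0 lower in footprints. None of the 33 was called between genotypes by edgeR without the block either, so the block could take no call of theirs away. With the culture set as a term, 0 genes were higher in RNA.

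DESeq2 called 13 genes higher and 7 lower in RNA, and 56 higher and 26 lower in footprints, 1 of the 33 among the higher. Between culture sets it called 7 of the 33 higher and 2 lower in RNA (1720 and 2068 of all 11097 genes). In footprints it called 8 of the 33 higher and 2 lower (1545 and 1853 of all 11472 genes). Genes lower in KO footprints numbered 2 with RLE size factors, 2 without a filter and 0 in replicates 1 and 2 alone. Genes higher in KO footprints numbered 1 in replicates 3 and 4 alone and 0 in replicates 1 and 2 alone. Without a filter 0 of the 33 were lower between sets in footprints.

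The sign changed in footprints for Cyp51 (-0.0040 with DESeq2, -0.0040 with RLE size factors, -0.0074 without the identifier term, -0.19 in replicates 3 and 4 alone) and for Apoe (-0.38 without the identifier term, -0.46 in replicates 1 and 2 alone). In replicates 3 and 4 alone Hmgcs1 was -0.047, Stard4 -0.11, Acss2 -0.00053 and Zmpste24 -0.025, and Pmvk was 0.078 in replicates 1 and 2 alone. The cause was not tested.

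Leaving out 1 library each time, RNA log2 fold changes ran from -0.031 to 0.40 for Hmgcs1, -0.20 to 0.071 for Cyp51, -0.20 to 0.077 for Srebf2, -0.062 to 0.24 for Scap, -0.16 to 0.17 for Scd2 and -0.44 to 0.0084 for Acss2. Footprint values ran from -0.0041 to 0.26 for Hmgcs1, -0.15 to 0.13 for Pmvk, -0.16 to 0.13 for Cyp51, -0.21 to 0.0099 for Scap, -0.089 to 0.21 for Stard4 and -0.14 to 0.21 for Acss2, and the efficiency of Stard4 from -0.26 to 0.0023. Genes called higher numbered 0 to 1 in RNA and 0 to 11 in footprints, and lower 0 to 3 in footprints. Between sets, 483 to 1311 genes were higher and 608 to 1544 lower in RNA, with 0 to 8 of the 33 higher and 0 to 1 lower. In footprints 86 to 864 were higher and 233 to 1358 lower, with 0 to 6 of the 33 higher and 0 to 2 lower.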
